A study of Homo sapiens with 9 samples.

Results

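Insulin-like growth factors (IGFs) reach their receptors through a set of secreted binding proteins, and 8 genes of that system were followed in HaCaT cells: the binding proteins IGFBP2, IGFBP3, IGFBP4, IGFBP6 and IGFBP7 and the receptors IGF1R, IGF2R and INSR. They were taken by name, each matched by symbol to 1 Ensembl ID, and are 8 of 78899 gene IDs counted. Of these, 7 were among the 16921 genes tested, and IGFBP2 was too low. The genes were chosen by family name with their CPM in the BD, NBD and control libraries already known, so levels and changes of the 8 genes are a description, and the p-values printed with them add no support to the choice. HaCaT is an established line of immortalized human keratinocytes, and it is the cell line named for all groups. The labels name 3 sorted BD libraries, 3 sorted NBD libraries and 3 libraries of the cell line, called control. The sources used here do not say what BD and NBD stand for or which stain was used for sorting. All cells were grown in high-glucose medium with low calcium and 10% fetal bovine serum, a source of growth factors.

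IGF1 and IGF2 are small hormones related to insulin. Most extracellular IGF is held by binding proteins, which lengthen its life, keep it from the receptor or deliver it when a protease cuts them. IGF1R and INSR are related receptor tyrosine kinases that act through IRS adaptors, PI3K and AKT, while IGF2R has no kinase and carries IGF2 and mannose-6-phosphate-tagged enzymes to lysosomes. In skin, keratinocytes are known to make IGFBP3, and IGF1 comes largely from dermal fibroblasts.

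Total counts ran from 17128797 to 29512856 per library. The control libraries were not alike. The chi-square per degree of freedom between the counts of control replicates 1 and 2 was 14.9, while control replicate 3 differed from them at 191 and 187, and pairs within BD or NBD lay between 27.4 and 148. Comparisons with control are therefore also given without control replicate 3, or with it as the only control, where that changes a call. All 8 keratinocyte markers stood at 1 CPM or more in every library, with summed levels of 2535 to 2862 CPM in BD, 1969 to 2798 CPM in NBD and 2279 to 4022 CPM in control. Control replicates 1 and 2 were the highest libraries for KRT5, ITGA6, COL17A1 and CDH1, but not both for KRT14, TP63, SFN and ITGB4. KRT5 stood at 509 to 720 CPM in BD and 323 to 668 CPM in NBD, against 1012, 1241 and 367.5 CPM in control. Of the 21 markers of fibroblasts, melanocytes, immune cells and endothelium, 0 reached 1 CPM in every library. In at least 1 library, 3 fibroblast, 1 melanocyte, 1 immune and 2 endothelial markers did. COL1A1, a fibroblast marker, stood at 1.22 to 3.76 CPM in the sorted libraries, against 0.256, 0.729 and 3.20 CPM in control. The endothelial list summed to 11.9 to 18.9 CPM in BD, 6.74 to 16.3 CPM in NBD and 1.85 to 16.8 CPM in control, led by CDH5, a cadherin of endothelial junctions, while PECAM1 stayed at or below 0.197 CPM. Separate cultures are not stated for the replicates. The p-values therefore measure the spread among these samples, which may be technical.

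IGFBP3, the main carrier of IGF in serum, was the most abundant of the 8 genes in the sorted libraries and control replicate 3 (ENSG00000146674, GRCh38 chromosome 7, 45912245 to 45921874, minus strand). In control replicates 1 and 2, IGF1R and IGF2R stood above it. Levels are given as normalised CPM, counts relative to the scaled library total. IGFBP3 stood at 1680, 2486 and 2402 CPM in the BD libraries and at 1670, 1567 and 2397 CPM in the NBD libraries. The control libraries held 46.6, 48.05 and 2436 CPM. Control replicate 3 lay within the span of the sorted libraries, and control replicates 1 and 2 lay far under it. Control replicate 3 held 52.3 times the level of control replicate 1 and 50.7 times that of control replicate 2. Counts behind these values were 37885 to 69689 in the 7 high libraries and 912 and 857 in the 2 low ones, so counting error is small beside the gap. Other measures differed between the same libraries. The share of counts on mitochondrial rRNA was 17.3% to 22.3% in BD and 26.8% to 28.9% in NBD, against 12.3%, 11.9% and 20.7% in control. CDH5 stood at 11.8 to 18.8 CPM in BD and 5.92 to 15.6 CPM in NBD, against 1.07, 0.785 and 16.7 CPM in control. CD14, an immune marker, stood at 4.65 to 6.86 CPM in BD and 3.67 to 6.85 CPM in NBD, against 1.02, 0.617 and 6.33 CPM in control. VWF, another endothelial marker, ran the other way, at 0.0689 to 0.417 CPM in BD and 0.157 to 0.703 CPM in NBD, against 1.53, 1.07 and 0.0753 CPM in control. The part of these measures in the result was not tested. In bulk RNA, fewer cells expressing a gene and less of its RNA per cell cannot be told apart.

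Ranked by CPM per kilobase of annotated exon among 19850 protein-coding genes, IGFBP3 was placed 41, 43 and 41 in BD and 25, 50 and 43 in NBD. In control it was placed 3551, 3526 and 31. It made up 76.5% to 80.7% of the summed per-kilobase level of the 5 binding proteins in BD and 79.4% to 84.9% in NBD. The control libraries had shares of 18.3%, 17.0% and 80.2%. IGFBP6 held the larger share in control replicates 1 and 2, at 27.98 and 32.6 CPM per kilobase beside 10.2 and 10.5 for IGFBP3. IGFBP7 also exceeded IGFBP3 there, at 15.35 and 16.56 CPM per kilobase.

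IGFBP6, a binding protein that prefers IGF2 to IGF1, was the second of the family by level (GRCh38 chromosome 12, 53097436 to 53102345, plus strand). It stood at 102, 164 and 192 CPM in BD and at 73.3, 94.9 and 159 CPM in NBD, against 37.7, 43.8 and 149 CPM in control. Control replicates 1 and 2 were again the lowest of the 9 libraries, by a smaller margin. Control replicate 3 held 3.97 and 3.41 times their levels. The per-kilobase ratio of IGFBP3 to IGFBP6 was 3.68 to 4.87 in BD and 4.45 to 6.71 in NBD, against 0.364, 0.323 and 4.80 in control, so the 2 genes were not lower in proportion.

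IGF1R, the receptor that carries the growth signal of IGF1 and IGF2, ran the other way (GRCh38 chromosome 15, 98648539 to 98964530, plus strand). Its level was 79.2, 50.2 and 56.3 CPM in BD and 81.2, 130 and 30.7 CPM in NBD, against 216, 214 and 58.6 CPM in control. Control replicates 1 and 2 were the highest libraries, NBD replicate 2 came next, and NBD replicate 3 was the lowest. Control replicates 1 and 2 held 3.69 and 3.65 times the level of control replicate 3. The spread inside NBD alone was 4.24-fold.

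**Figure D1:**
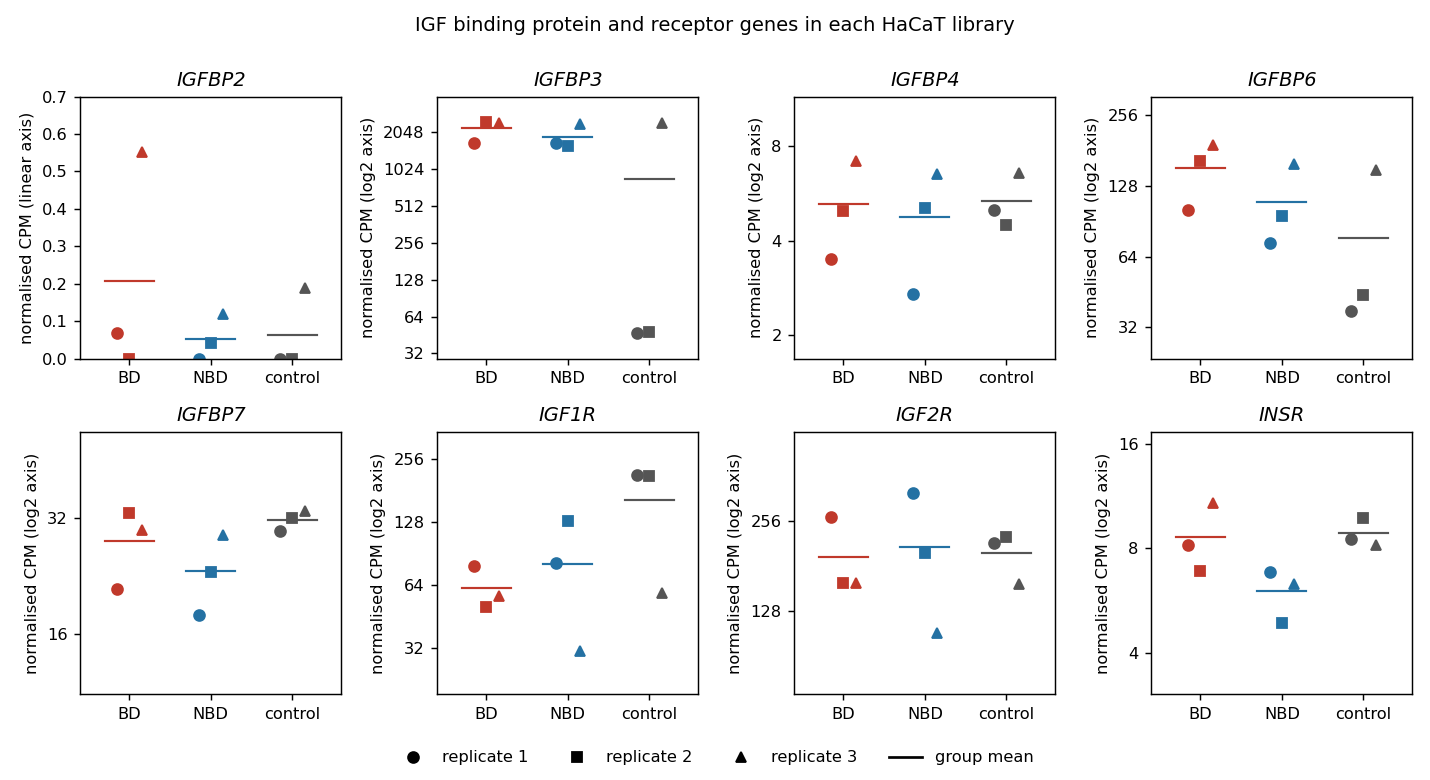
Normalised CPM of the 8 genes in each library, by group, on log2 axes except for IGFBP2, whose axis is linear and starts at 0. Symbols mark the replicate number and bars the group mean of 3 libraries. IGFBP3 lies at 1567 CPM or more in 7 libraries and under 49 CPM in control replicates 1 and 2, where IGFBP6 is also lowest and IGF1R highest.

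IGFBP3, IGFBP6 and IGF1R had the widest ranges over the 9 libraries, 5.74, 2.35 and 2.81 on the log2 scale, and their start regions are shown because they are the genes whose level moved most. Each window runs from 250 bases before to 50 bases after the RefSeq start (GRCh38.p14), read 5′ to 3′ on the gene's strand. Capitals mark a GC box (GGGCGG on either strand) or a TATA box (TATAAA or TATATA on either strand).
IGFBP3, chr7:45921223-45921522, minus strand: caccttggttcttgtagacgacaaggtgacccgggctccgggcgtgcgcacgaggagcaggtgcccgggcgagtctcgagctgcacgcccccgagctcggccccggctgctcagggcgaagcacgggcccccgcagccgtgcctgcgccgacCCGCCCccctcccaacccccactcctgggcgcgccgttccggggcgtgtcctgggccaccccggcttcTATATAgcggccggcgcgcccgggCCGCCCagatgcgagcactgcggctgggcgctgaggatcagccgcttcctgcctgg
IGFBP6, chr12:53097417-53097716, plus strand: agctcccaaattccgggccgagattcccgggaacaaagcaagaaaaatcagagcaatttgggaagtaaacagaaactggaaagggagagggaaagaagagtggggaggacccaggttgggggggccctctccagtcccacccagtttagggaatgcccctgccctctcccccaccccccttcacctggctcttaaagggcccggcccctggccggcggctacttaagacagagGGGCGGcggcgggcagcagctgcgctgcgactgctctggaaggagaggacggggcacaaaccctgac
IGF1R, chr15:98648289-98648588, plus strand: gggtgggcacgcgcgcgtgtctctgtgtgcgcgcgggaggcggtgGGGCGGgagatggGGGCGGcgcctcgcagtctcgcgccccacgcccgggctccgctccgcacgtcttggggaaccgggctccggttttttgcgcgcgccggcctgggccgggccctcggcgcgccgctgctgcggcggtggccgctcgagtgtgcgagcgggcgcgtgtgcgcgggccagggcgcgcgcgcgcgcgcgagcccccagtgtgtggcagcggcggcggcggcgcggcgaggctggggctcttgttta
The IGFBP3 window holds TATATA beginning 30 bases before the start and 2 GC boxes. IGFBP6 has 1 GC box beginning 17 bases before the start and no TATA match, and IGF1R has 2 GC boxes and no TATA match. A TATA match was found in 13.7% and a GC box in 45.0% of 35116 such windows. CG dinucleotides numbered 36 in the IGFBP3 window, 12 in that of IGFBP6 and 55 in that of IGF1R, against a median of 14 over all windows. These matches are letters in a window and say nothing of which factor binds there. RefSeq windows were matched for 7 of the 8 genes, all but IGFBP7, and among the 7 a TATA match was found only for IGFBP3 and IGFBP4.

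IGFBP7, a distant relative that binds IGF weakly, varied least of the 7 tested genes, over 0.90 on the log2 scale (GRCh38 chromosome 4, 57030773 to 57110385, minus strand). It stood at 20.9, 32.9 and 29.8 CPM in BD and at 17.9, 23.1 and 28.9 CPM in NBD, against 29.6, 32.0 and 33.4 CPM in control. Here control replicates 1 and 2 lay beside control replicate 3, and all 3 control libraries lay above the 3 NBD libraries. The exons of IGFBP7 share 270 of 1930 bases with POLR2B on the opposite strand, and no source used here gives the strand setting of the counting, so its count is uncertain to that extent.

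IGFBP4, which inhibits IGF until the protease PAPPA cuts it, was low in all libraries (GRCh38 chromosome 17, 40443461 to 40457731, plus strand). Values were 3.51, 4.99 and 7.17 CPM in BD, 2.704, 5.09 and 6.49 CPM in NBD and 5.01, 4.49 and 6.55 CPM in control. The groups overlapped throughout, and the highest BD library held 2.04 times the lowest. IGFBP2, another carrier with a preference for IGF2 (GRCh38 chromosome 2, 216632828 to 216664436, plus strand), was at the limit of detection. It had 2, 0 and 16 counts in BD and 0, 1 and 3 in NBD, against 0, 0 and 5 in control. The 16 counts of BD replicate 3 carry an exact Poisson 95% interval of 9.15 to 26.0 counts, which covers counting error only, and 0 counts allow up to 3.69. A floor of 3 counts corresponds to 0.103 to 0.118 CPM in BD, 0.111 to 0.124 CPM in NBD and 0.113 to 0.168 CPM in control.

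IGF2R, the clearance receptor for IGF2, was the most abundant receptor in the sorted libraries (GRCh38 chromosome 6, 159969099 to 160113507, plus strand). It stood at 265, 159 and 158 CPM in BD and at 319, 201 and 108 CPM in NBD, against 216, 227 and 158 CPM in control. NBD held both the highest and the lowest library, a 2.95-fold span that contains all values of BD and control. INSR, the insulin receptor, was scarcer than IGF1R in every library (GRCh38 chromosome 19, 7112255 to 7294034, minus strand). INSR levels were 8.16, 6.87 and 10.8 CPM in BD and 6.85, 4.88 and 6.33 CPM in NBD, against 8.53, 9.81 and 8.17 CPM in control. All 3 NBD libraries lay under all BD and all control libraries, although the gap between BD replicate 2 and NBD replicate 1 was within 0.1 CPM.

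The per-kilobase ratio of receptors was taken within each library, where library scaling cancels. IGF1R exceeded INSR 7.27, 5.48 and 3.90 times in BD and 8.89, 19.97 and 3.63 times in NBD, against 19.0, 16.3 and 5.38 times in control. NBD replicate 2 thus stood with control replicates 1 and 2. For IGF1R over IGF2R the ratios were 0.382, 0.404 and 0.455 in BD and 0.326, 0.828 and 0.363 in NBD, against 1.28, 1.21 and 0.476 in control. IGF1R outnumbered IGF2R per kilobase in control replicates 1 and 2 alone among the 9 libraries.

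The order of mean CPM per kilobase was IGFBP3, IGFBP6, IGFBP7, IGF2R, IGF1R, IGFBP4, INSR and IGFBP2 in BD and in NBD. BD means were 479 ± 97.0, 113 ± 34.5, 14.4 ± 3.22, 10.9 ± 3.46, 4.44 ± 1.10, 2.37 ± 0.837, 0.825 ± 0.193 and 0.0434 ± 0.0630 CPM per kilobase (SD, n = 3). In BD the ranges of IGFBP7 and IGF2R overlapped and no other neighbours did. In NBD, IGFBP7 overlapped IGF2R, IGF2R overlapped IGF1R and IGF1R overlapped IGFBP4. In control IGF1R and IGF2R followed IGFBP7 at 11.7 ± 6.47 and 11.2 ± 2.09 CPM per kilobase and overlapped, and their order turned round when the longest transcript was used as the length.

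BD was set against NBD to ask whether the sorted subpopulations differ. With all 9 libraries 0 of the 7 genes were called by edgeR's quasi-likelihood test at an adjusted p under 0.05, where 0.0177% of all 16921 genes were called. DESeq2, which called 0.343% of all genes, gave no p-value for IGFBP3 in any comparison and called 0 of the other 6. By limma-voom 0 of the 7 were called, where 5 of all 16921 genes were. By edgeR 0 of the 7 had an unadjusted p under 0.05, where 991 of all genes did. INSR averaged 8.62 ± 2.02 CPM in BD and 6.02 ± 1.02 CPM in NBD (SD, n = 3 each), which gave a log2 fold change of 0.52 ± 0.26 (SE; 95% interval -0.05 to 1.08; edgeR, adjusted p = 0.814). All 3 BD libraries lay above the highest NBD value, and INSR was the only 1 of the 7 genes with separate groups, while 14.6% of all genes tested had separate groups. IGFBP6 averaged 153 ± 46.4 CPM in BD and 109 ± 44.4 CPM in NBD, giving a log2 fold change of 0.48 ± 0.50 (adjusted p = 0.901). IGF1R averaged 61.9 ± 15.3 CPM across BD libraries and 80.7 ± 49.7 CPM across NBD libraries, giving a log2 fold change of -0.38 ± 0.54 (adjusted p = 0.936).

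IGFBP3 averaged 2189 ± 443 CPM across BD libraries and 1878 ± 452 CPM across NBD libraries, for a log2 fold change of 0.22 ± 1.15 with a 95% interval of -2.32 to 2.76 (edgeR, adjusted p = 0.987). The control libraries share in that estimate of spread. With the 6 BD and NBD libraries alone the value was 0.21 ± 0.26 with an interval of -0.39 to 0.80 (adjusted p = 0.846). The remaining genes were at 0.26 ± 0.23 for IGFBP7, 0.13 ± 0.38 for IGFBP4 and -0.11 ± 0.36 for IGF2R, with 95% intervals of -0.25 to 0.76, -0.71 to 0.98 and -0.91 to 0.69. In this comparison 0 of the 7 were called without control replicate 3, where 0.0901% of all genes were, and 0 with it as the only control, where 0.0478% were.

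Against control, 0 of the 7 genes were called in BD with all libraries by edgeR or limma-voom and 0 of the 6 by DESeq2, and 1 had an unadjusted p under 0.05 by edgeR. Of all genes 0% were called by edgeR, 0.987% by DESeq2 and 1 gene by limma-voom, and 2334 had an unadjusted p under 0.05 by edgeR. IGF1R was the gene with the low unadjusted p, at 61.9 ± 15.3 CPM in BD and 163 ± 90.2 CPM in control, a log2 fold change of -1.39 ± 0.54 (edgeR, adjusted p = 0.344). IGFBP3 averaged 2189 ± 443 CPM in BD and 844 ± 1379 CPM in control, a log2 fold change of 1.38 ± 1.15 (adjusted p = 0.564). The control SD exceeds the control mean, with 1 library high and 2 low. The size of this value depended on the tool and on the model, at 3.67 by limma-voom (adjusted p = 0.314) and 3.19 with the replicate block (edgeR, adjusted p = 0.219). IGFBP6 averaged 153 ± 46.4 CPM across BD libraries and 77.0 ± 62.8 CPM across control libraries, at 0.99 ± 0.50 (adjusted p = 0.391). IGFBP7, IGF2R, IGFBP4 and INSR lay between -0.18 and -0.04. With no filter on low counts, edgeR made 1162 calls in 39344 genes. Among them were IGF1R at -1.39 ± 0.24 (edgeR, adjusted p = 3.88e-06), IGFBP3 at 1.38 ± 0.29 (adjusted p = 0.000318) and IGFBP6 at 0.99 ± 0.24 (adjusted p = 0.00357). These fold changes were close to those with the filter, and only the SEs were smaller.

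Without control replicate 3, edgeR called 3 of the 7 genes in BD against control, where it called 24.3% of the 17755 genes then tested. IGFBP3 rose by 5.54 ± 0.27 on the log2 scale (edgeR, adjusted p = 9.97e-06) and IGFBP6 by 1.91 ± 0.34 (adjusted p = 0.00411), while IGF1R fell by 1.79 ± 0.43 (adjusted p = 0.0130). With control replicate 3 as the sole control, 0 were called, where 0% of 18832 genes were. IGFBP3 was then at -0.16 ± 0.38, IGFBP6 at 0.02 ± 0.45 and IGF1R at 0.07 ± 0.57, with the spread taken from the sorted groups and the lone control assumed to vary like them. The 95% intervals were -0.998 to 0.68, -0.98 to 1.03 and -1.20 to 1.34. The calls for these 3 genes were thus present with control replicates 1 and 2 and absent with control replicate 3 alone.

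NBD against control uses the same 3 control libraries, so its values are not a second look at them. With all libraries 0 of the 7 genes were called by edgeR or limma-voom, 0 of the 6 by DESeq2, and 0 had an unadjusted p under 0.05 by edgeR. Of all genes, edgeR called 0%, limma-voom 0 and DESeq2 0.177%, and 1545 had an unadjusted p under 0.05 by edgeR. IGFBP3 was at 1878 ± 452 CPM in NBD and 844 ± 1379 CPM in control, a log2 fold change of 1.15 ± 1.15 (edgeR, adjusted p = 0.687). It was 3.44 by limma-voom (adjusted p = 0.457) and 2.88 with the replicate block (edgeR, adjusted p = 0.340). IGF1R was at 80.7 ± 49.7 CPM in NBD and 163 ± 90.2 CPM in control, at -1.01 ± 0.53 (adjusted p = 0.551). Groups were separate for INSR and IGFBP7, both lower in 3 of 3 NBD libraries, and 8.42% of all genes tested had separate groups. INSR averaged 6.02 ± 1.02 CPM in NBD and 8.84 ± 0.861 CPM in control, at -0.55 ± 0.26 (95% interval -1.12 to 0.01; adjusted p = 0.539). IGFBP7 averaged 23.3 ± 5.53 CPM in NBD and 31.7 ± 1.90 CPM in control, at -0.44 ± 0.23 (95% interval -0.95 to 0.06; adjusted p = 0.545). With no filter, edgeR called IGF1R at -1.03 ± 0.24 (adjusted p = 0.00390) and IGFBP3 at 1.14 ± 0.29 (adjusted p = 0.0108), among 594 calls in 39344 genes. Here too the fold changes hardly moved and the SEs were smaller than with the filter. The no-filter 95% interval for IGFBP3, 0.58 to 1.70, again held neither its value without control replicate 3 (5.33) nor that with it as the only control (-0.38).

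Without control replicate 3, edgeR called IGFBP3, IGFBP6 and IGF1R in NBD against control, 3 of 7 genes where 18.2% of all genes were called. IGFBP3 rose by 5.33 ± 0.27 on the log2 scale (edgeR, adjusted p = 1.34e-05), IGFBP6 rose by 1.44 ± 0.34 (adjusted p = 0.0186) and IGF1R fell by 1.40 ± 0.43 (adjusted p = 0.0435). With control replicate 3 as the only control, 0 of the 7 and 0% of the 18832 genes tested were called by edgeR. IGFBP3, IGFBP6 and IGF1R were then at -0.38 ± 0.38, -0.46 ± 0.45 and 0.44 ± 0.57. INSR stood at -0.59 ± 0.27 without control replicate 3 and at -0.45 ± 0.36 with it as the only control, so its value moved little with the choice of control.

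**Figure D2:**
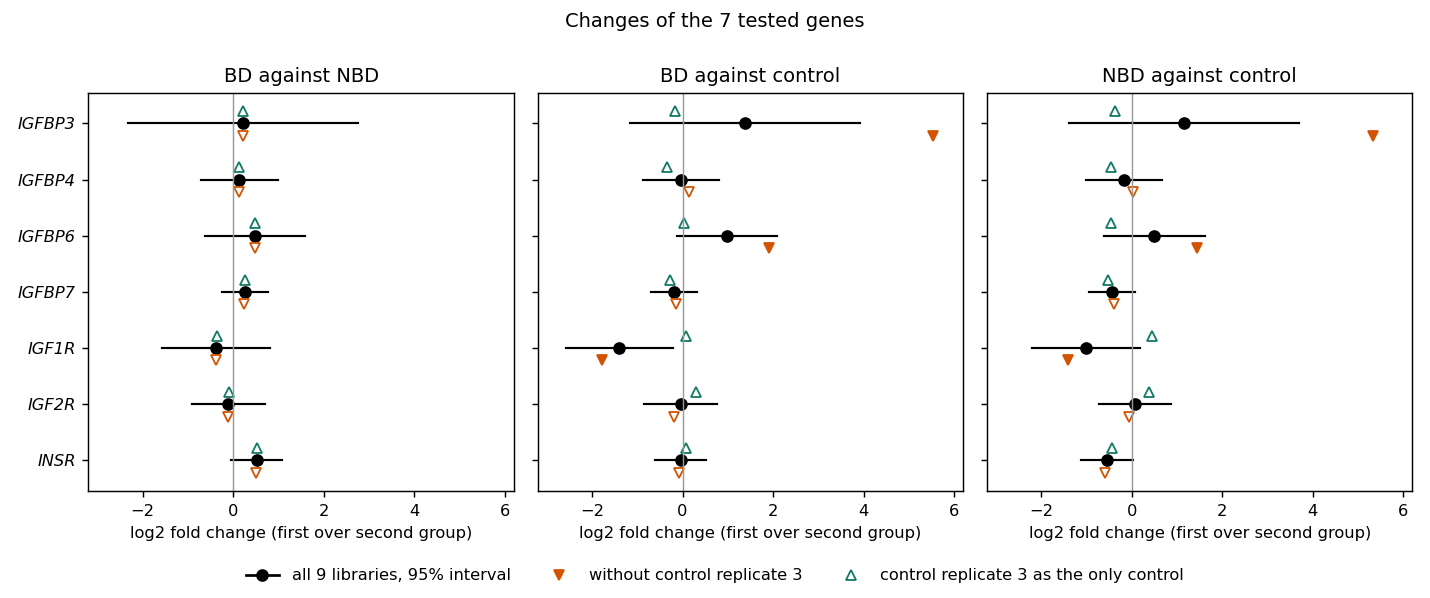
Log2 fold changes of the 7 tested genes in the 3 comparisons, first group over second. Black points and lines are all 9 libraries with 95% intervals, orange triangles the fit without control replicate 3, green triangles the fit with it as the only control, and filled triangles mark calls at an adjusted p under 0.05. IGFBP3, IGFBP6 and IGF1R carry filled triangles against control in the fit without control replicate 3 and in no other fit plotted.

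Inside the sorted groups, some replicates paired low binding proteins with high receptors. BD replicate 1 had the lowest IGFBP3, IGFBP4, IGFBP6 and IGFBP7 of BD and its highest IGF1R and IGF2R. NBD replicate 3 had the highest of those 4 binding proteins in NBD and its lowest IGF1R and IGF2R. The per-kilobase ratio of IGFBP6 to IGF2R was 5.08, 13.7 and 16.1 in BD and 3.05, 6.26 and 19.5 in NBD, against 2.31, 2.56 and 12.6 in control. INSR was highest in BD replicate 3.

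Transcript length moved with part of this pattern. IGF1R, IGF2R and INSR have longest transcripts of 12235, 14044 and 8954 bases, and the 4 binding proteins of 1177 to 2412 bases. The median centred log2 CPM of 1162 genes with transcripts of at least 8000 bases, minus that of 989 genes of at most 1500 bases, was 0.18, -0.52 and -0.26 in BD and 0.55, 0.14 and -0.35 in NBD, against 0.41, 0.08 and -0.11 in control. INSR did not follow it, at 0.50 centred log2 CPM in BD replicate 3 and -0.64 in NBD replicate 2. IGF1R followed it in part, at -0.04 in NBD replicate 1 and 0.64 in NBD replicate 2. The part of transcript length in the differences between replicates was not tested.

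**Figure D3:**
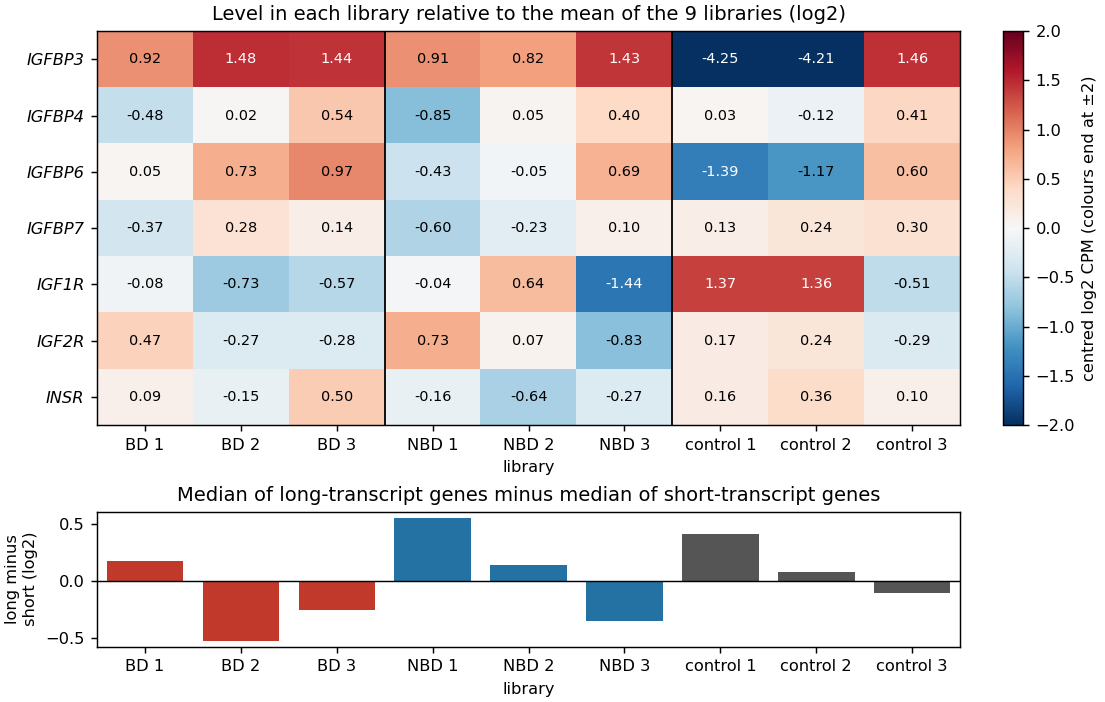
Upper panel, log2 CPM of the 7 tested genes in each library minus the gene's mean over the 9 libraries, with colours ending at 2 in either direction. Lower panel, the median of genes with long transcripts minus that of genes with short ones (log2) in the same libraries. IGFBP3 reads -4.25 and -4.21 in control replicates 1 and 2, and IGF1R and IGF2R are lowest in NBD replicate 3.

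Genes whose pattern was most like that of IGFBP3 or IGF1R, the 2 genes with the widest range, were found by the mean absolute difference of centred log2 CPM over the 9 libraries, among 12591 other protein-coding genes tested. For IGFBP3 these were CLMP, an adhesion molecule, at 0.16, WNT4, a Wnt ligand, at 0.21, EPHA6, an ephrin receptor, at 0.22, MANSC1 at 0.22 and EMILIN2, an extracellular matrix protein, at 0.24. WNT4 stood at 27.2 to 60.6 CPM in 7 libraries and at 0.869 and 0.841 CPM in control replicates 1 and 2. CLMP, MANSC1 and EMILIN2 stood at 0 CPM in these 2 controls and at 3.77 CPM or less elsewhere. EPHA6 stood at 0.102 and 0.112 CPM in the 2 controls and at 4.76 to 12.6 CPM elsewhere. The size of the drop in these 4 genes therefore depends on the prior count of 1, and their likeness to IGFBP3 is uncertain. IGFBP6 came in place 834 of that ranking and IGF1R in place 12313. For IGF1R they were SH3PXD2A, a scaffold of invasive protrusions, at 0.12, AGO2, the slicer of RNA silencing, at 0.13, ZMIZ1, a transcriptional coregulator, at 0.15, PTPRS, a receptor phosphatase, at 0.16 and JRK at 0.17. AGO2 stood at 66.2, 46.7 and 52.9 CPM in BD and 65.4, 125 and 37.5 CPM in NBD, against 211, 226 and 59.6 CPM in control. Over the 7 libraries other than control replicates 1 and 2, the nearest 5 genes to IGFBP3 were KRTCAP3, ETV7, NR1H3, DALRD3 and GRK4. IGFBP7 was then in place 123 for IGFBP3, against place 8400 over all 9 libraries.

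The rest of the pathway was read from a list of 61 genes arranged by role, of which 49 were tested. The ligands were all but undetected. IGF1 and INS had 0 counts in every library and IGF2 had 1 count in BD replicate 3 and 2 in control replicate 2. Of the other binding proteins, IGFBP5 had 0 counts in all libraries and IGFBP1 had 3, 0 and 0 counts in BD and 0, 2 and 2 in NBD, against 0 in each control library. IGFBP1 lies 18576 bases from IGFBP3 on chromosome 7, and IGFBP5 lies 7668 bases from IGFBP2 on chromosome 2, in each case with no protein-coding gene between.

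Over all 49 genes 0 were called by edgeR in any of the 3 comparisons with all libraries, and 1 had an unadjusted p under 0.05 between BD and NBD, 7 between BD and control, and 4 between NBD and control. Over all 16921 genes these numbers were 991, 2334 and 1545. DESeq2 called 3 in BD against control, where it gave no adjusted p for PAPPA2 and PIK3R2, and 0 in the others. The median log2 fold changes of the list were 0.12, -0.04 and -0.02, against -0.02, 0.03 and 0.04 over all genes tested. Without control replicate 3, edgeR called 9 higher and 6 lower of 50 tested genes in BD against control, where it called 13.8% of all genes higher and 10.5% lower. In NBD against control it called 6 higher and 2 lower, where the shares of all genes were 11.6% and 6.56%. With control replicate 3 as the only control it called 0 of 50 in both, where it called 0 of 18832 genes.

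Among proteases and their inhibitors, PAPPA, which cuts IGFBP4, stood at 6.67, 8.28 and 6.89 CPM in BD and 6.41, 7.53 and 4.29 CPM in NBD, against 8.48, 8.24 and 5.05 CPM in control. STC2, an inhibitor of PAPPA, stood at 32.1, 56.4 and 37.3 CPM in BD and 30.5, 48.3 and 32.7 CPM in NBD, against 60.9, 65.2 and 32.7 CPM in control. Its relative STC1 had 0.729, 1.41 and 2.14 CPM in BD and 1.04, 1.61 and 5.19 CPM in NBD, against 9.25, 8.92 and 4.52 CPM in control. Every BD library lay under every control library, control replicate 3 included, with a log2 fold change of -2.40 ± 0.60 that edgeR did not call with all libraries (adjusted p = 0.333) and DESeq2 did (adjusted p = 0.0140). Without control replicate 3 STC1 fell by 2.66 in BD against control (edgeR, adjusted p = 0.0104), and set against that library alone it was at -1.67. Groups were separate for 15.8% of all genes in that comparison.

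Of the receptor adaptors, IRS1, the main docking protein of IGF1R, stood at 24.0, 16.3 and 18.8 CPM in BD and 25.9, 43.4 and 16.1 CPM in NBD, against 56.0, 60.1 and 27.1 CPM in control. As with IGF1R, control replicates 1 and 2 were highest and NBD replicate 2 came next. IRS1 was at -1.28 ± 0.38 on the log2 scale in BD against control (edgeR, adjusted p = 0.333), at -1.55 without control replicate 3 (adjusted p = 0.00721) and at -0.47 with it as the only control. IRS2 stood at 10.1, 7.22 and 9.17 CPM in BD and 10.4, 7.45 and 5.51 CPM in NBD, against 12.2, 11.7 and 8.63 CPM in control. SOCS1, a brake on cytokine and insulin signalling, stood at 0.729, 3.46 and 4.83 CPM in BD and 0.778, 1.16 and 1.46 CPM in NBD, against 0.204, 0.336 and 0.904 CPM in control. It gave the largest positive value among listed genes at 1 CPM or more in BD against control, 2.59 ± 0.71 (edgeR, adjusted p = 0.333), which DESeq2 called (adjusted p = 0.0384). The value was 3.47 without control replicate 3 (edgeR, adjusted p = 0.0115) and 1.72 with it as the only control.

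FOXO1, a transcription factor that AKT keeps out of the nucleus, stood at 9.80, 8.95 and 8.58 CPM in BD and 8.82, 14.9 and 10.4 CPM in NBD, against 26.1, 23.3 and 12.8 CPM in control. BD and control did not overlap, and the log2 fold change was -1.19 ± 0.29 (edgeR, adjusted p = 0.333; DESeq2, adjusted p = 0.0278). It was -1.43 without control replicate 3 (edgeR, adjusted p = 0.00203) and -0.50 with it as the only control. In NBD against control FOXO1 was at -0.87 ± 0.29, called without control replicate 3 at -1.11 (edgeR, adjusted p = 0.00936), and GRB10, an adaptor that restrains INSR and IGF1R, at -0.82 ± 0.26 (edgeR, adjusted p = 0.539 for both with all libraries). PIK3R3, a regulatory subunit of PI3K, was at 1.22 ± 0.65 in BD and 0.99 ± 0.65 in NBD against control (adjusted p = 0.402 and 0.581). SORT1, a sorting receptor of the trans-Golgi, was at 1.45 ± 0.89 and 1.21 ± 0.89 (adjusted p = 0.460 and 0.607). Without control replicate 3 edgeR called both genes in both comparisons, PIK3R3 at 2.79 and 2.57 (adjusted p = 0.000746 and 0.00132) and SORT1 at 4.35 and 4.13 (adjusted p = 9.33e-05 and 0.000159). PIK3R3 read 3.88 and 3.03 CPM in control replicates 1 and 2 and 12.9 CPM or more in the other libraries, and SORT1 read 0.613 and 0.897 CPM against 8.90 CPM or more.

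Between BD and NBD the largest values among listed genes at 1 CPM or more were SOCS1 at 1.41 ± 0.67, SOCS3, a related brake, at 0.91 ± 0.57 and CTSD, a lysosomal protease, at 0.57 ± 0.53. At the other end STC1 was at -0.87 ± 0.61, IRS1 at -0.53 ± 0.38 and RPS6KB1, a kinase downstream of mTOR, at -0.41 ± 0.16. None of these 6 was called by edgeR (adjusted p from 0.814 to 0.888), and RPS6KB1 alone had an unadjusted p under 0.05.

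**Figure D4:**
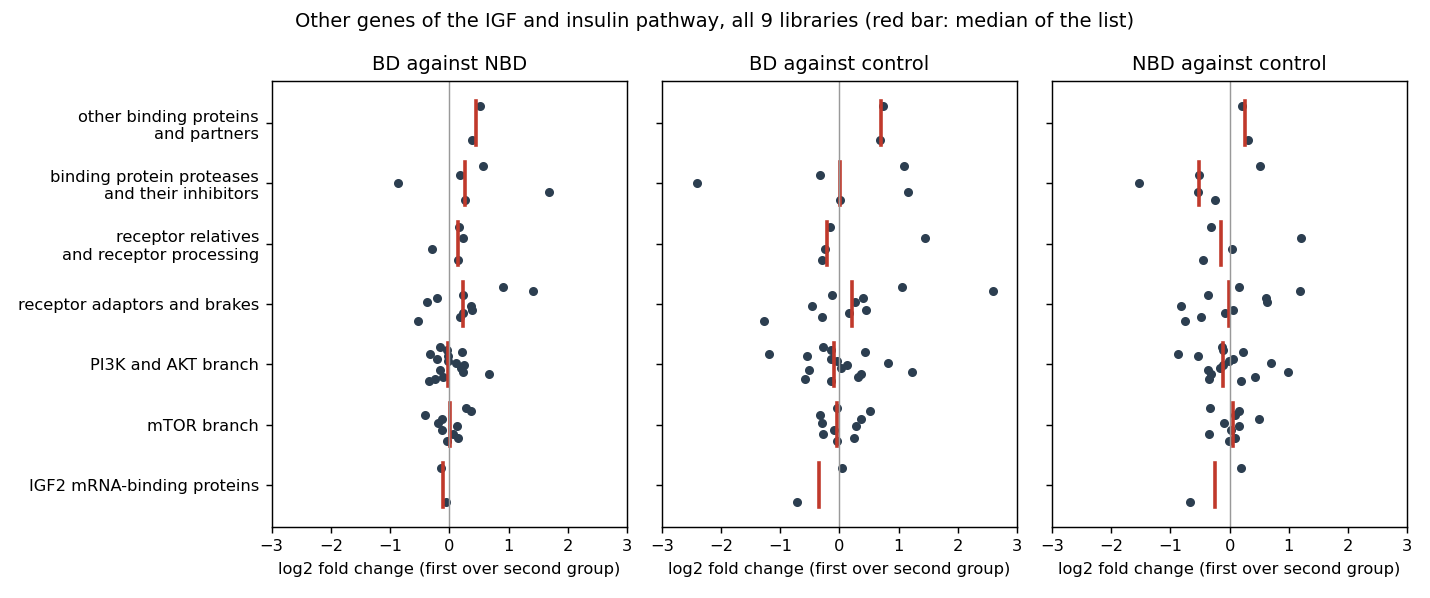
Log2 fold changes of the 49 tested genes of the pathway list, 1 point a gene, by role and comparison with all 9 libraries, first group over second. Red bars are list medians. No gene was called by edgeR at an adjusted p under 0.05, and the lowest point against control in BD is STC1 at -2.40.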

How the data were processed

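In all, 9 libraries of total RNA from HaCaT cells were analysed, 3 a group. The deposited values are raw read counts per gene, with no normalization. Libraries were stranded, rRNA-depleted and paired-end, per the labels' protocols, which name 2 RNA kits without saying which library had which. Per the submitters' processing notes, the tools were FastQC 0.74, Trimmomatic 0.39, STAR 2.7.11b and featureCounts, with build GRCh38. Annotation release, strand setting and handling of multiply aligned reads: not given in the sources used here.

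Symbols came from a gene name table, and coordinates, exon lengths and overlaps from GENCODE 29 (GRCh38). Counts were tested in R 4.3.3 with edgeR 4.0.16. Genes were kept by filterByExpr and libraries scaled by TMM. One quasi-likelihood model covered all 9 libraries, with 1 coefficient for each group, leaving 6 residual degrees of freedom, with two-sided tests and Benjamini-Hochberg adjustment over all 16921 genes tested. Log2 fold changes are ± SE, with 95% intervals from the moderated t distribution. Log2 CPM for profiles used a prior count of 1. The members and lists were chosen with earlier results of these data known.

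Pathway genes are named by rule: a fixed set given by level, and per comparison the called genes or else the 3 largest changes per direction among genes at 1 CPM or more in the group where they were higher. Alternatives were RLE size factors, no filter, 1 CPM in 3 libraries, DESeq2 1.42.0, limma-voom (limma 3.58.1), a block for replicate number, the 6 libraries compared, each library left out, control replicate 3 as the only control, removal of both mitochondrial rRNA genes, and another gene length. The edgeR test was also run on simulated counts that held no split among the control libraries, so that run does not bear on the split. Plots used matplotlib 3.10.9 in Python 3.11.15.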

Additional observations from a re-analysis of the deposited data

How the results depend on the processing

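Over 18 alternatives the number of members called stayed at 0 in BD against NBD, where IGFBP2 was tested in 2 of them and IGFBP3 had no p-value by DESeq2. In BD against control it was 3 with no filter, and in NBD against control 2 with no filter, and over the fits that left out each library in turn it ran from 0 to 3 in both, with 3 only without control replicate 3. For the pathway list, BD against control gave 10 calls with no filter, 3 by DESeq2 and 0 to 15 over the left-out libraries. NBD against control gave 4 with no filter and 0 to 8. The member calls with no filter came with smaller SEs at nearly unchanged fold changes, and the cause of this was not tested.

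Some signs turned. With control replicate 3 as the only control, BD against control turned for IGFBP3 (-0.16), IGF1R (0.07), IGF2R (0.29) and INSR (0.0692), and NBD against control for IGFBP3 (-0.38), IGFBP6 (-0.46), IGF1R (0.44), SORT1 (-0.22) and PIK3R3 (-0.21). Over the left-out libraries, BD against NBD ran from -0.16 to 0.43 for IGFBP4, from -0.76 to 0.15 for IGF1R, from -0.41 to 0.33 for IGF2R, from -1.28 to 0.12 for STC1, BD against control ran from -0.33 to 0.18 for IGFBP4, from -0.33 to 0.093 for IGF2R, from -0.22 to 0.10 for INSR, and NBD against control ran from -0.46 to 0.12 for IGFBP4, from -0.37 to 0.37 for IGF2R. IGF2R in NBD against control was -0.0592 by limma-voom and -0.0463 with the replicate block. Of the alternative values of the 7 genes tested in the main fit, 28 turned sign, 11 passed the threshold and 339 did neither. The 339 include the IGFBP3 values by DESeq2, which had no p-value.

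Libraries that share a replicate number had correlated deviations at r = 0.035 to 0.599, and those with different numbers at r = -0.546 to 0.404. The numbers were to be taken as pairing only if all 9 same-numbered pairs passed 0.1. As 6 of 9 did, the main fit has no pairing, and some shared structure by number may remain. With a replicate block, edgeR called 0 of the 7 genes and 0 of the pathway list in each comparison, where it called 0 of all 16921 genes. The block lowered some SEs. IGFBP6 in BD against control was then at 1.21 ± 0.26 (edgeR, unadjusted p = 0.00161, adjusted p = 0.184), beside 0.99 ± 0.50 without it. In that comparison 3562 of all genes had an unadjusted p under 0.05 with the block, and 2334 without it.

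Depth limits IGFBP2, IGFBP1 and the ligands, at 16 counts or fewer a library.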

Other observations

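A further gene of the pathway list, chosen after its values were seen, followed the split among the controls. ADAM12, a metalloprotease that can cut IGFBP3 and IGFBP5, had 3, 1 and 1 counts in BD and 0, 2 and 0 in NBD, against 114, 122 and 1 in control, and was too low to be tested with all libraries.

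Of the mRNA-binding proteins named for IGF2, IGF2BP3 stood at 98.5 to 108 CPM in BD and 104 to 129 CPM in NBD, against 95.7 to 108 CPM in control. IGF2BP2 stood at 39.9, 53.8 and 69.9 CPM in BD and 40.6, 77.5 and 51.5 CPM in NBD, against 107, 103 and 59.0 CPM in control, with control replicates 1 and 2 highest. Its log2 fold change in BD against control was -0.71 ± 0.31 with all libraries (edgeR, adjusted p = 0.354), -0.93 without control replicate 3 (adjusted p = 0.0336) and -0.12 with it as the only control. IGF2BP1 had 1 count in all, and IGF2 itself was at 2 counts or fewer in every library.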
